A study of Mus musculus with 36 samples.

Results

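The Slc25a genes encode the mitochondrial carriers, and the genes described here were those of the liver count table whose symbol is Slc25a followed by a number, 44 of 38283 genes. Counts were measured by RNA-seq in the livers of 36 mice on a C57Bl/6J background, kept on chow to 16 weeks of age, with 1 library from each mouse. Wild-type mice (WT) were compared with heterozygous mice carrying Pik3r1 Y657* (WT/Y657*), a mutation that shortens the regulatory subunits of phosphoinositide 3-kinase, and no other allele was named for either group. Livers were taken on free access to chow (fed), after a 16 h fast (fasted) or after 6 h of refeeding chow that followed the fast (refed), with 6 mice for each genotype and state. The allele was present in the whole animal, so that effects arising outside the liver cannot be told apart from those within it.

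Carriers of this family sit mostly in the inner mitochondrial membrane and exchange small molecules across it: adenine nucleotides and phosphate for ATP synthesis, carboxylates and amino acids for gluconeogenesis, the urea cycle and lipid synthesis, acylcarnitines for fatty acid oxidation, and cofactors and iron. In the liver they link the pathways of the fed state, which export citrate for lipid synthesis, with those of the fasted state, which import fatty acids and export precursors of glucose. A few members lie elsewhere, such as Slc25a17 in the peroxisome and Slc25a46 in the outer mitochondrial membrane, and several have no settled substrate.

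Of the 44 members, 39 passed the filter on low counts and were tested, and the other 5 were close to silent in these livers. Slc25a41 had 18 counts over all 36 mice, Slc25a31 had 37, Slc25a18 had 135, Slc25a2 had 152 and Slc25a35 had 167. Slc25a31, the ADP/ATP carrier of the germ line, was at 0 in 21 mice and Slc25a41, an ATP-Mg/phosphate carrier, at 0 in 28. The members were grouped by the substrate they are known to carry into 7 classes.

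Library totals ranged from 8839488 to 19542775 counts, and values are given below as CPM, a gene's share of the library's counts after TMM scaling and set to a common library size. The 5 hepatocyte markers together reached between 47352 and 91270 CPM in every liver, while 5 adipocyte markers stayed at or under 9.02 CPM and 5 striated muscle markers at or under 2.16 CPM. On the first principal component, which held 23.7% of the variance, fed mice lay between -37.8 and -28.2 apart from 3 fed WT/Y657* mice (ALC_MT_866, ALC_MT_868 and ALC_MT_869 by their labels) at -10.1 to -9.66. Fed mice also came from another range of mouse numbers than fasted and refed mice. A difference that goes with mouse number thus cannot be told apart from feeding against fasting or refeeding against fed. The labels do not say what the number ranges stand for. The authors' methods place tissue collection before the overnight fast, after it or after refeeding, and give no clock times. Time of day thus cannot be told apart from feeding state, here and in what follows. Replicates were separate mice, and p-values set a difference between groups against the spread between mice within groups.

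The RefSeq promoter windows (GRCm38.p6, 250 bases before to 50 after the RefSeq start, gene strand, 5′ to 3′) are given for 5 carriers. Of these 4 rose on fasting in wild-type mice and 1 fell. Slc25a34 (chr4:141623785-141624084, minus strand), Slc25a47 (chr12:108850879-108851178, plus strand) and Slc25a20 (chr9:108661886-108662185, plus strand) rose in both genotypes. Slc25a10 (chr11:120491587-120491886, plus strand) is the member whose fasting response differed by genotype, and Slc25a45 (chr19:5877572-5877871, plus strand) fell. The Slc25a10 window lies inside the interval of the gene at chr11:120489406-120499187 and not in front of it. Capitals mark the nuclear receptor half-site AGGTCA or, on the other strand, TGACCT.
Slc25a34: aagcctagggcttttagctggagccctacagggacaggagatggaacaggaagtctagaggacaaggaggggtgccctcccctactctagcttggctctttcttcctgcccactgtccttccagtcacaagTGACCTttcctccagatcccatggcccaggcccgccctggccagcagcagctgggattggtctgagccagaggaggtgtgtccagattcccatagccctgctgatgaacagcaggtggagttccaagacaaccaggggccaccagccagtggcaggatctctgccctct
Slc25a47: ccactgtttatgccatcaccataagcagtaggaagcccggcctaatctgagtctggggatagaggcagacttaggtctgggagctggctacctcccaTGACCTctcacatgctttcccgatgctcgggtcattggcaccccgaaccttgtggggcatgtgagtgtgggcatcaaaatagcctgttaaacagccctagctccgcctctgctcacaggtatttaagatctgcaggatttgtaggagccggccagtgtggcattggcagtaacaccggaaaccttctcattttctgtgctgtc
Slc25a20: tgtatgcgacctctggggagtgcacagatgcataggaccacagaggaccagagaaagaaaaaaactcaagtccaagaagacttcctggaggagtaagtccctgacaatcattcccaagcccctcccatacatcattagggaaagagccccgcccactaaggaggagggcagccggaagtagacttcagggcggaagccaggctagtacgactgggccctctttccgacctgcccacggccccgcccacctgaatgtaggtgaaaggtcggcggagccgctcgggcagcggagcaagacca
Slc25a10: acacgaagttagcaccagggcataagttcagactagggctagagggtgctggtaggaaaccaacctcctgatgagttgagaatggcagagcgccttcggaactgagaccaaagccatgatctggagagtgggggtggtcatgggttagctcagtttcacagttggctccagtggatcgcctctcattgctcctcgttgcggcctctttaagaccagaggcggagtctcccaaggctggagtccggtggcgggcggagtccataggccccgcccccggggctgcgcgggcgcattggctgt
Slc25a45: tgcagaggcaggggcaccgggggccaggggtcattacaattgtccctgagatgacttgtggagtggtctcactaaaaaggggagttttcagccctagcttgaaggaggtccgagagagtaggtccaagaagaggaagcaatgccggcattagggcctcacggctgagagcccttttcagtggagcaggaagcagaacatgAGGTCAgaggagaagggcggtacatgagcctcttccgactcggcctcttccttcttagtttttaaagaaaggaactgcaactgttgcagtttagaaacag

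The half-site was found at -119 in Slc25a34, at -153 in Slc25a47 and at -50 in Slc25a45, counted to its first base, and its letters were in neither of the Slc25a20 and Slc25a10 windows. It was present in 16.3% of all 32851 RefSeq windows and in 9.3% of the 43 windows of members, which belong to 34 of them. These were 4 windows, the fourth being that of Slc25a39. The E-box CACGTG, which reads the same on both strands, was in 7.15% of all windows and in 18.6% of the windows of members, 8 windows of 7 genes, among them the citrate carrier gene Slc25a1 and the aspartate/glutamate carrier gene Slc25a13. The forkhead motif TGTTTAC, searched on both strands, was in 3.65% of all windows and in none of the members. A match is a run of letters and not a shown binding site, and the motifs do not overlap in the windows printed.

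In fed wild-type liver the levels of the 39 tested carriers spanned about 3 orders of magnitude per length. Slc25a5, the ADP/ATP carrier of most tissues, stood at 161 CPM per kilobase of exon (147 to 179), Slc25a47, a liver-enriched carrier of unsettled substrate, at 139 (100.3 to 205) and Slc25a39, a glutathione carrier, at 106 (102 to 113). The ranges of these neighbours overlapped from one to the next, whereas Slc25a39 lay above Slc25a1 at 80.1 (68.4 to 89.2) in all mice. Those 4 genes together made up 50.6% of the level per length summed over all 44 members, and the first 10 members 80.2%.

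Each class was led by 1 or 2 members, averaged over the 6 groups. Slc25a13, or citrin, led the amino acid carriers at 82.8 CPM per kilobase and Slc25a1 the carboxylate carriers at 67.3. The leader changed with feeding state in both genotypes. In fed liver the mean of Slc25a15 was above that of Slc25a13 (76.5 beside 70.0 in wild-type mice). In fasted liver the mean of Slc25a10 was above that of Slc25a1 (85.2 beside 60.0 in wild-type mice). By contrast the leading uncoupling protein relative, Slc25a30, was at 5.06 and the leading iron carrier, Slc25a37 (mitoferrin-1), at 4.42. The iron leader changed as well: in fasted liver the mean of Slc25a28 was above that of Slc25a37. The values were 3.66 beside 3.22 in wild-type and 3.33 beside 3.16 in WT/Y657* mice, with overlapping ranges. Isoforms with the same substrate differed widely in fed wild-type liver: Slc25a4, the ADP/ATP carrier of heart and muscle, was at 2.11 CPM per kilobase beside 161 for Slc25a5, Slc25a12 at 2.64 beside 70.0 for Slc25a13, and Slc25a40 at 0.569 beside 106 for Slc25a39.

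**Figure D1:**
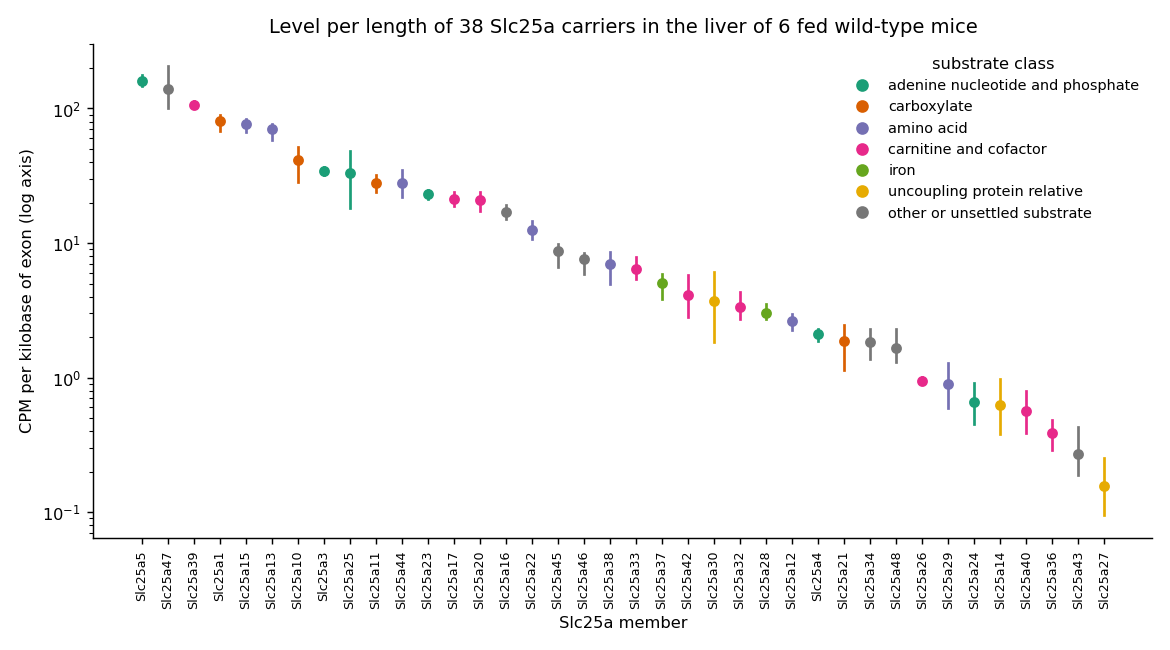
Level per length (CPM per kilobase of exon, log axis) of 38 of the 39 tested members in 6 fed wild-type mice, ordered from high to low, with the point at the mean, the line from the lowest to the highest mouse, and colour by substrate class. The first 4 genes lie between 80.1 and 161 and the last, Slc25a27, at 0.158.

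Fasting moved about as many carriers in one genotype as in the other. In wild-type mice 20 of 39 members were called, 12 higher and 8 lower, against 32% of all 13945 genes tested (14.5% higher and 17.5% lower). In WT/Y657* mice 19 of 39 were called, 12 higher and 7 lower, against 32.9% of all genes (15.2% higher and 17.7% lower). In both genotypes alike, 9 members were called higher and 7 lower, and none was called in opposite directions. The share of all genes called in both genotypes is not given beside these counts. The median absolute log2 change of the members was 0.40 for wild-type and 0.37 for WT/Y657* mice, beside 0.25 and 0.25 over all genes. Because bulk liver was measured, a change in the number of cells of a type and a change in RNA per cell cannot be told apart, here and in what follows. Markers of other cells differed in part with feeding state. The 5 endothelial markers together were at 208 to 284 CPM in fed and 292 to 339 CPM in fasted wild-type liver, without overlap. They were at 278 to 342 CPM in fasted and 231 to 258 CPM in refed WT/Y657* liver, also without overlap. Fed WT/Y657* liver, at 242 to 300 CPM, overlapped with fasted WT/Y657* liver, and refed wild-type liver, at 233 to 301 CPM, with fasted wild-type liver. The 5 pancreatic acinar markers were at 17.5 to 27 CPM in fed and 5.54 to 10.8 CPM in fasted wild-type liver, and at 7.60 to 20.1 CPM and 4.23 to 7.44 CPM in WT/Y657* liver. Of these, Cel, Pnlip, Cpa1 and Prss1 were at 0 in every fed mouse, so that the fed sum came from 1 gene. The part of these markers in the results on fasting and refeeding was not tested.

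Summed over all 44 members, fasted wild-type liver held 3952 to 4918 CPM with a median of 4321, above all fed wild-type livers (2857 to 3778). Fasted WT/Y657* liver held 3581 to 4691 CPM with a median of 3832, and its lowest mouse only just exceeded the highest fed WT/Y657* mouse at 3577. Refed livers returned to 3113 to 3628 CPM in wild-type and 2798 to 3435 CPM in WT/Y657* mice. In fasted liver Slc25a47 had the highest mean CPM of any member, 830 CPM in wild-type and 801 CPM in WT/Y657* mice.

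Among the carriers that rose, the one with the most direct role in fasting is Slc25a20, the carnitine/acylcarnitine carrier that brings long-chain acyl groups into the matrix for oxidation. Its level was 84.2, 103 and 116 CPM (lowest, median and highest mouse) in fed wild-type mice and 214, 263 and 292 CPM in fasted ones. Among WT/Y657* mice it was 71.1, 102 and 114 CPM fed and 162, 243 and 259 CPM fasted. Every fasted mouse thus exceeded every fed mouse of its genotype. The rise was 2.54-fold in wild-type (log2 1.35 ± 0.12 SE, edgeR adjusted p = 8.01e-11) and 2.40-fold in WT/Y657* mice (log2 1.26 ± 0.12, edgeR adjusted p = 3.78e-10).

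Slc25a34, a carrier of unsettled substrate, showed the steepest rise among members over 1 CPM. It went from 3.67, 4.97 and 6.12 CPM fed to 10.7, 16.6 and 18.5 CPM fasted in wild-type mice, and from 2.6, 4.60 and 8.26 CPM to 12, 14.8 and 21.5 CPM in WT/Y657* mice, with no overlap in either genotype. The log2 change was 1.67 ± 0.20 and 1.69 ± 0.20 in wild-type and WT/Y657* mice (edgeR adjusted p = 2.33e-08 and 1.46e-08). Slc25a47, also of unsettled substrate, rose from 299, 374 and 613 CPM to 709.5, 791 and 1031 CPM in wild-type mice, a log2 change of 1.01 ± 0.21 (edgeR adjusted p = 0.000336), and by 0.85 ± 0.21 in WT/Y657* mice (edgeR adjusted p = 0.00186). Fed and fasted mice did not overlap for Slc25a47 in either genotype.

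A glutamate carrier and an uncoupling protein relative also rose in both genotypes. Slc25a22, a glutamate carrier, stood at 64.0, 74.2 and 86.7 CPM in fed and at 160, 181 and 204 CPM in fasted wild-type mice, and in fasted WT/Y657* mice it ranged more widely, from 111 through 190 to 337 CPM. Its log2 change was 1.28 ± 0.17 for wild-type and 1.33 ± 0.17 in WT/Y657* mice (edgeR adjusted p = 2.43e-07 and 1.30e-07). Slc25a30, the uncoupling protein relative first described in kidney, rose by 1.45 ± 0.25 and 1.37 ± 0.26 on the log2 scale (edgeR adjusted p = 4.10e-05 and 9.60e-05), without overlap between fed and fasted mice.

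**Figure D2:**
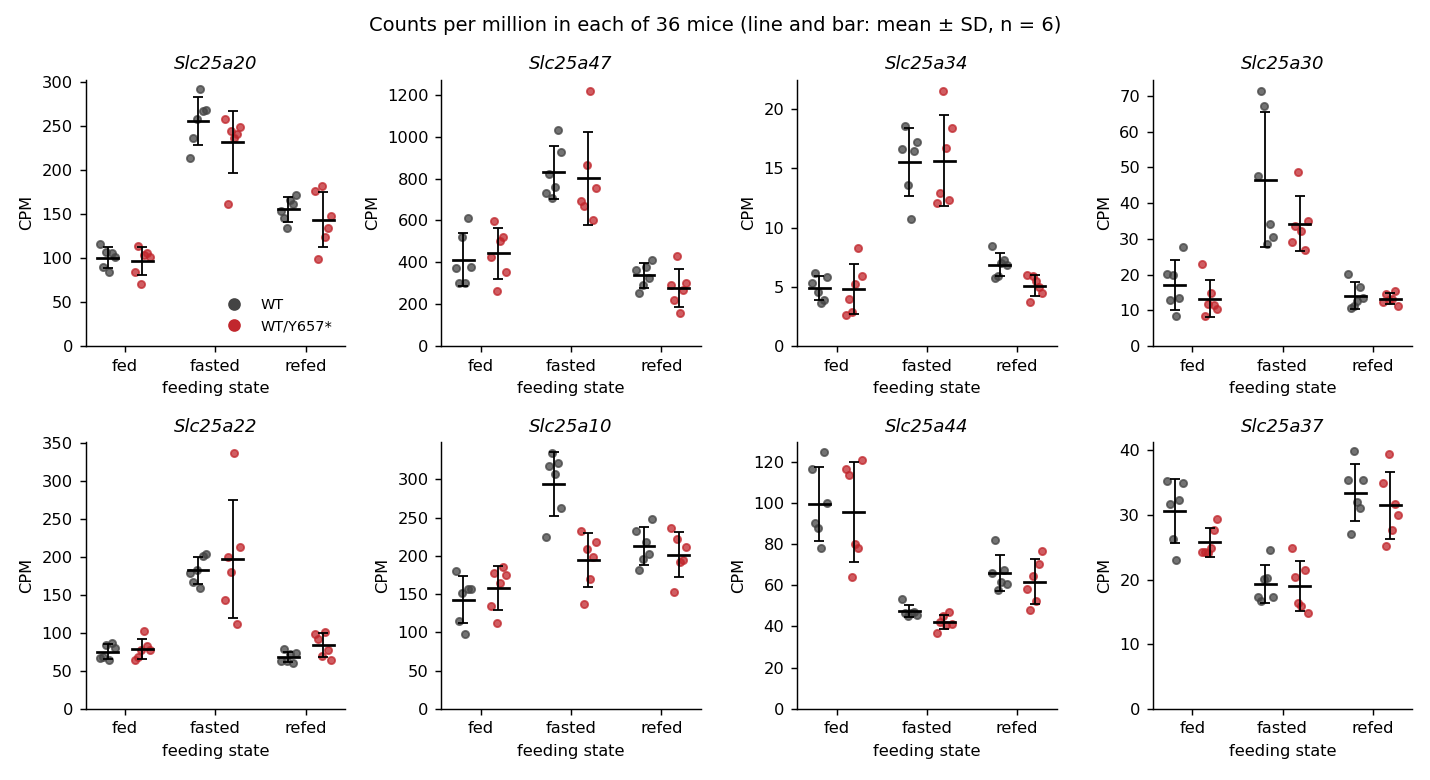
CPM of 8 named members in each of 36 mice (points) by feeding state, with wild-type mice in grey and WT/Y657* mice in red, and the mean ± SD of 6 mice in black. Slc25a20, Slc25a47, Slc25a34, Slc25a30 and Slc25a22 were high in fasted mice of both genotypes, Slc25a44 and Slc25a37 were low there, and Slc25a10 was highest in fasted wild-type mice.

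The other rises in both genotypes completed the group, and most of them were smaller. Slc25a13, which exports aspartate in exchange for glutamate, rose by 0.48 ± 0.10 (log2) in wild-type mice, beside 0.30 ± 0.10 in WT/Y657* mice. Slc25a42, a coenzyme A carrier, rose by 0.43 ± 0.16 and 0.61 ± 0.16, and Slc25a46, the outer membrane relative, by 0.52 ± 0.09 and 0.28 ± 0.09. The pyrimidine nucleotide carrier gene Slc25a33 rose by 0.55 ± 0.14 in wild-type mice, beside 1.16 ± 0.14 in WT/Y657* mice, and this genotype difference of 0.61 ± 0.19 was not called (edgeR adjusted p = 0.0623). Slc25a29, a basic amino acid carrier at 1.46 to 5.88 CPM in fed and fasted WT/Y657* mice, was called only in that genotype (log2 0.73 ± 0.27, edgeR adjusted p = 0.0350). Without the 3 fed WT/Y657* mice that lay apart, its edgeR adjusted p was 0.0616 and the number of members called in WT/Y657* mice was 16. Its call was also lost in 7 of the 12 fits that left out 1 mouse (edgeR adjusted p from 0.0530 to 0.165), namely fed mouse ALC_MT_857, ALC_MT_858, ALC_MT_859 or ALC_MT_868, or fasted mouse ONF_MT_806, ONF_MT_826 or ONF_MT_922.

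The carriers that fell were led by Slc25a44, which carries branched-chain amino acids. In wild-type mice it was at 78.2, 95.3 and 125 CPM fed and at 45.0, 46.6 and 53.3 CPM fasted. Mice of the WT/Y657* genotype had 64.2, 96.9 and 121 CPM fed and 36.9, 41.9 and 46.8 CPM fasted. The groups did not overlap, and the level fell 2.1-fold in wild-type (log2 -1.07 ± 0.13, edgeR adjusted p = 5.98e-08) and 2.27-fold in WT/Y657* mice (log2 -1.18 ± 0.13, edgeR adjusted p = 9.44e-09).

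Slc25a45, a carrier of unsettled substrate whose window carries the same half-site as that of Slc25a34, changed by -0.69 ± 0.12 and -0.71 ± 0.12 on the log2 scale (edgeR adjusted p = 2.91e-05 and 2.02e-05 in wild-type and WT/Y657* mice). Slc25a37, the mitoferrin of red cell precursors, went from 23, 32 and 35.3 CPM to 16.8, 18.7 and 24.5 CPM in wild-type mice, where the 2 groups overlapped slightly (log2 -0.66 ± 0.12, edgeR adjusted p = 5.66e-05). The change in WT/Y657* mice was -0.44 ± 0.12 (edgeR adjusted p = 0.00539). The 5 erythroid markers together held 221 to 309 CPM in fed wild-type, 231 to 425 CPM in fasted wild-type and 166 to 313 CPM in refed wild-type liver, and their part in the Slc25a37 result was not tested.

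The other members that fell in both genotypes were Slc25a23, Slc25a17, Slc25a40 and Slc25a1. Slc25a1, which exports citrate, the source of cytosolic acetyl-CoA for lipid synthesis, fell from 148, 174 and 193 CPM to 121, 129 and 140 CPM in wild-type mice and from 152, 165 and 191 CPM to 103, 111 and 122 CPM in WT/Y657* mice. Neither pair of groups overlapped, and the log2 changes were -0.42 ± 0.09 and -0.58 ± 0.09 (edgeR adjusted p = 0.000208 and 1.77e-06). Slc25a23, an ATP-Mg/phosphate carrier, changed by -0.60 ± 0.12 and -0.67 ± 0.12.

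By class, changes in wild-type mice ran in both directions in all but the uncoupling protein relatives, the iron carriers and the adenine nucleotide and phosphate carriers. In that genotype 4 of 10 carnitine and cofactor carriers rose and 3 fell, 2 of 7 amino acid carriers rose and 1 fell, and 4 of 7 members of unsettled substrate rose and 1 fell. Of the 6 tested adenine nucleotide and phosphate carriers none rose and 1 fell in each genotype, and Slc25a5, Slc25a4 and the phosphate carrier gene Slc25a3 were not called by fasting in either. Of the 39 members, 16 were called by fasting in neither genotype, a count given without the matching share of all genes.

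**Figure D3:**
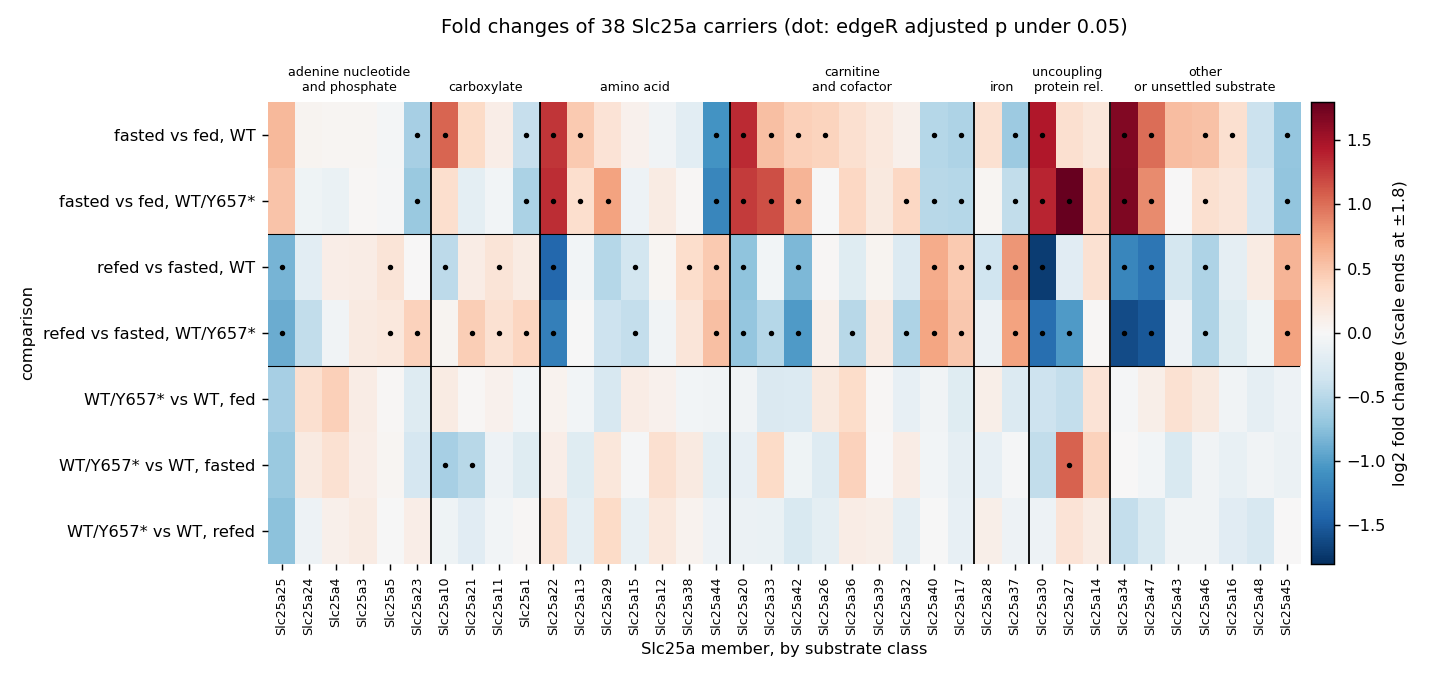
Log2 fold changes of 38 of the 39 tested members (columns, by substrate class) in 7 comparisons (rows), with red for higher, blue for lower and a dot for edgeR adjusted p under 0.05. Dots are frequent in the fasting and refeeding rows and number 3 in the genotype rows, all in fasted mice.

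The enzymes that work with these carriers are given from short lists chosen by function. All 3 carnitine shuttle enzymes rose on fasting in both genotypes, as did Slc25a20: Cpt1a, which forms long-chain acylcarnitines, by 1.60 ± 0.11 and 1.34 ± 0.11 on the log2 scale, and Cpt2, which converts them back inside the mitochondrion, by 0.96 ± 0.09 and 0.77 ± 0.09. Crat, which forms short-chain acylcarnitines, rose by 2.67 ± 0.19 and 2.34 ± 0.19. All 3 genes of the citrate export list fell in both genotypes, as did Slc25a1, with ATP citrate lyase (Acly) at -2.03 ± 0.24 for wild-type and -2.97 ± 0.25 in WT/Y657* mice.

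The list of 7 ornithine and urea cycle enzymes, which work with the ornithine/citrulline carrier Slc25a15, moved both ways: 2 rose and 2 fell on fasting in wild-type mice, and 2 rose and 1 fell in WT/Y657* mice, while Slc25a15 itself was called in neither. Among the 16 other mitochondrial transporters 4 rose and 3 fell in wild-type mice and 2 rose and 5 fell in WT/Y657* mice. Both subunits of the mitochondrial pyruvate carrier rose in both genotypes, Mpc1 by 0.65 ± 0.10 in wild-type mice beside 0.47 ± 0.10 in WT/Y657* mice and Mpc2 by 0.61 ± 0.08 beside 0.63 ± 0.08. Of the 7 genes for carrier import into the inner membrane 1 was called in wild-type mice, Tomm70a, higher by 0.21 ± 0.06, while 3 rose and 2 fell in WT/Y657* mice. Of the 4 malate-aspartate shuttle enzymes 1 was called in wild-type mice, Got1, higher by 0.87 ± 0.31, while Mdh1 fell by 0.39 on the log2 scale in WT/Y657* mice. The 3 tested genes of the carrier fold under other symbols gave 1 call in wild-type mice, Ucp2, an uncoupling protein, higher by 0.58 ± 0.21. In WT/Y657* mice they gave 2, Mtch2, an insertase of the outer mitochondrial membrane, higher by 0.40 ± 0.06, and Mtch1, lower by 0.17 ± 0.07.

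Refeeding ran mostly the other way. It shares its fasted mice with the fasting comparison, so a reversal of sign is in part built in, and the values are given side by side only. In wild-type mice 19 of 39 members were called by refeeding, 8 higher and 11 lower, against 30.2% of all genes (16.5% higher and 13.7% lower). Among WT/Y657* mice 23 were called, 10 higher and 13 lower, against 31.3% of all genes (17.1% higher and 14.2% lower).

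Slc25a30 had the largest fitted change on refeeding in wild-type mice, from 28.5, 40.9 and 71.4 CPM fasted to 10.6, 13.1 and 20.2 CPM refed. The fasted wild-type values divided by mouse number, with 47.5, 71.4 and 67.2 CPM in the 3 lower-numbered and 28.5, 34.3 and 30.4 CPM in the 3 higher-numbered mice. By mean log2 CPM with 0.5 CPM added, the change was -2.14 among the former and -1.10 among the latter. Among the latter Slc25a22 at -1.45 and Slc25a47 at -1.28 changed more. The WT/Y657* levels of Slc25a30 went from 26.9, 32.9 and 48.6 CPM to 11.2, 13.1 and 15.5 CPM. Refed and fasted mice did not overlap, and the log2 changes were -1.71 ± 0.26 and -1.36 ± 0.26 (edgeR adjusted p = 4.91e-06 and 0.000115). Slc25a34 showed the largest fall in WT/Y657* mice, -1.61 ± 0.20 (edgeR adjusted p = 5.15e-08), beside -1.18 ± 0.19 in wild-type mice (edgeR adjusted p = 9.56e-06), again without overlap.

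Slc25a22 and Slc25a47 fell to around their fed level or under it. Slc25a22 reached 60.4, 67.7 and 78.6 CPM in refed wild-type and 64.7, 85.0 and 101 CPM in refed WT/Y657* mice, log2 changes of -1.41 ± 0.17 and -1.24 ± 0.16. Slc25a47 reached 254, 343 and 410 CPM in refed wild-type and 159, 281 and 428 CPM in refed WT/Y657* mice, changes of -1.30 ± 0.21 and -1.53 ± 0.21. All 4 of these comparisons were without overlap between fasted and refed mice. Slc25a42, the coenzyme A carrier, fell by 0.81 and 1.02 on the log2 scale, to 17.3 to 20.6 CPM in wild-type and 12.2 to 20.9 CPM in WT/Y657* mice.

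Slc25a20 fell back only part of the way, to 134, 158 and 172 CPM in wild-type and 98.8, 141 and 182 CPM in WT/Y657* mice, log2 changes of -0.72 ± 0.12 and -0.69 ± 0.12. Slc25a25, a calcium-regulated ATP-Mg/phosphate carrier, went from 282, 355 and 608 CPM to 140, 233 and 269 CPM in wild-type mice (log2 -0.83 ± 0.28, edgeR adjusted p = 0.0245). In WT/Y657* mice it went from 124, 243 and 385 CPM to 98.1, 134 and 164 CPM, where the groups overlapped (log2 -0.90 ± 0.28, edgeR adjusted p = 0.0148). These 2 calls were among the less secure: the first had an edgeR adjusted p of 0.0860 without fasted wild-type mouse ONF_WT_919 and of 0.0615 or 0.0572 without refed mouse RF6_WT_828 or RF6_WT_900, and without fasted WT/Y657* mouse ONF_MT_806 the second had one of 0.0578.

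Of the 7 members that had fallen on fasting in both genotypes, 5 rose on refeeding in wild-type mice and all 7 in WT/Y657* mice. Both comparisons use the same fasted mice, so such a rise is in part built in, and no share over all genes is given. The 2 not called in wild-type mice were Slc25a1, at 0.15 ± 0.09 on the log2 scale, and Slc25a23, at 0.00 ± 0.12. Slc25a37 reached 27, 33.7 and 40.0 CPM in refed wild-type and 25.2, 30.9 and 39.5 CPM in refed WT/Y657* mice, above all fasted mice of the same genotype (log2 0.79 ± 0.12 and 0.73 ± 0.12, edgeR adjusted p = 4.40e-06 and 1.54e-05). Slc25a45 rose by 0.61 ± 0.12 and 0.72 ± 0.12 and Slc25a44 by 0.47 ± 0.13 and 0.55 ± 0.13. Slc25a5, not called by fasting, was higher on refeeding by 0.23 ± 0.07 in wild-type mice (edgeR adjusted p = 0.0113) and by 0.18 ± 0.07 in WT/Y657* mice (edgeR adjusted p = 0.0390).

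Refeeding for 6 h did not bring all carriers back to the level of mice on free access to chow. In wild-type mice 13 members differed between refed and fed liver, 9 higher and 4 lower, against 27.5% of all genes (13.2% higher and 14.3% lower). Among WT/Y657* mice 8 differed, 4 higher and 4 lower, against 26.1% of all genes (13% higher and 13.1% lower), and this split was 9 higher and 3 lower with library size alone as scaling and 3 higher and 5 lower after a correction for gene length. Slc25a20 was still above fed by 0.63 ± 0.12 on the log2 scale in wild-type mice, beside 0.57 ± 0.12 in WT/Y657* mice (edgeR adjusted p = 0.000184 and 0.000541). Slc25a44 was below fed by 0.60 ± 0.13 and 0.63 ± 0.13 (edgeR adjusted p = 0.000662 and 0.000360).

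Slc25a33 was also above fed in both genotypes, by 0.49 ± 0.14 and 0.64 ± 0.14. Among the members called in wild-type mice alone were Slc25a10, higher by 0.58 ± 0.14 (182 to 248 CPM refed beside 97.7 to 180 CPM fed, without overlap), and Slc25a23, lower by 0.60 ± 0.12. Called in WT/Y657* mice, Slc25a15, the ornithine/citrulline carrier, was lower by 0.52 ± 0.10 (272 to 425 CPM refed beside 431 to 502 CPM fed, without overlap), and Slc25a47 was lower by 0.68 ± 0.21. Slc25a39, the glutathione carrier, was higher in both genotypes, by 0.24 ± 0.08 for wild-type and 0.34 ± 0.08 for WT/Y657* mice, as was Slc25a13, by 0.43 ± 0.10 and 0.30 ± 0.10. In wild-type mice Slc25a21 and Slc25a26, the carriers of oxodicarboxylates and of S-adenosylmethionine, were higher by 0.48 ± 0.16 and 0.43 ± 0.15. Slc25a46 was lower by 0.28 ± 0.09 in WT/Y657* mice. The smaller of these calls depended on single mice: of 12 fits that left out 1 mouse, Slc25a21 lost its call in 4 (fed mouse ALC_WT_847 or ALC_WT_849, refed mouse RF6_WT_900 or RF6_WT_901, edgeR adjusted p from 0.0535 to 0.0869) and Slc25a26 in 2 (ALC_WT_860 or RF6_WT_900, edgeR adjusted p = 0.05002 and 0.0591). In WT/Y657* mice Slc25a13 lost it in 5 (ALC_MT_866, ALC_MT_868, RF6_MT_817, RF6_MT_897 or RF6_MT_899, edgeR adjusted p from 0.0543 to 0.109) and Slc25a46 in 4 (ALC_MT_866, ALC_MT_869, RF6_MT_810 or RF6_MT_898, edgeR adjusted p from 0.0526 to 0.0772). Without the 3 fed WT/Y657* mice that lay apart the edgeR adjusted p was 0.218 for Slc25a13 and 0.348 for Slc25a46. Whether these differences between refed and fed mice themselves differed by genotype was not tested.

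The genotypes were compared in each state. In fed liver no member was called by edgeR, against 2.37% of all genes, while 5 members had an unadjusted p under 0.05 and DESeq2 called 1. The count by edgeR was 0 to 1 in the fits that left out 1 mouse, and 0 without the 3 fed WT/Y657* mice that lay apart.

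In fasted liver 3 of 39 members were called between genotypes, 1 higher and 2 lower in WT/Y657* mice, beside 13.1% of all genes (6.43% higher and 6.63% lower). With library size alone as scaling the split was 2 higher and 1 lower. The median log2 difference of the members was -0.06, beside 0.00 for all genes. Only Slc25a10 was called without fasted wild-type mouse ONF_WT_824, ONF_WT_918 or ONF_WT_920, or without fasted WT/Y657* mouse ONF_MT_806 or ONF_MT_827.

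Slc25a10 encodes the dicarboxylate carrier, which exchanges malate and succinate for phosphate, and lies at chr11:120489406-120499187 (GRCm38). It was at 225, 312 and 334 CPM in fasted wild-type and at 137, 204 and 232 CPM in fasted WT/Y657* mice. The 2 groups overlapped narrowly, the lowest wild-type mouse lying under the highest WT/Y657* mouse. The level was 1.51-fold lower in WT/Y657* mice (log2 -0.60 ± 0.14, edgeR adjusted p = 0.00334). It was called in all 12 fits that left out 1 fasted mouse (edgeR adjusted p from 0.00175 to 0.0146) and in all 10 other alternatives. Among the 3 lower-numbered mice of each genotype the difference was -0.76 and among the 3 higher-numbered -0.45, by mean log2 CPM with 0.5 CPM added.

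The other members called in fasted liver were less secure. Slc25a21, the oxodicarboxylate carrier, was at 9.47, 11.4 and 13.7 CPM in wild-type and at 4.91, 8.46 and 10 CPM in WT/Y657* mice, which overlapped (log2 -0.50 ± 0.17, edgeR adjusted p = 0.0412). It was called in 4 of the 12 fits that left out 1 mouse, with edgeR adjusted p from 0.0283 to 0.143, and its difference was -0.62 among the 3 lower-numbered and -0.35 among the 3 higher-numbered mice of each genotype. Slc25a27, uncoupling protein 4 of the nervous system, was at 0.461, 0.711 and 1.16 CPM in wild-type and at 0.444, 1.65 and 2.91 CPM in WT/Y657* mice, with 4 to 34 counts in each library of the latter group. Its log2 difference of 1.07 ± 0.36 (edgeR adjusted p = 0.0439) was also called in 4 of 12 such fits, and the call was lost with the lower- and higher-numbered mice as a covariate (edgeR adjusted p = 0.0505), with no filter on low counts (edgeR adjusted p = 0.0868) and with only the groups compared (edgeR adjusted p = 0.0711). Its difference was 0.29 among the 3 lower-numbered and 0.94 among the 3 higher-numbered mice of each genotype, by mean log2 CPM with 0.5 CPM added. That addition narrows differences at such low levels, so these values cannot be set against the fitted 1.07. The 5 stellate cell markers together were at 402 to 590 CPM in fasted WT/Y657* and 341 to 410 CPM in fasted wild-type liver. In fed liver they were at 403.4 to 542 CPM in WT/Y657* and 286 to 403.2 CPM in wild-type mice, without overlap. Their part in these 3 results, and in the genotype difference of the fasting response, was not tested.

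Slc25a25 was not called between genotypes in any state, and its mean was lower in WT/Y657* mice in all of them. Its log2 differences were -0.60 in fed, -0.66 in fasted and -0.73 in refed mice, and in the last its range was 98.1 to 164 CPM in WT/Y657* and 140 to 269 CPM in wild-type mice. In refed liver no member was called by edgeR, against 0.0287% of all genes, with 3 members at an unadjusted p under 0.05 and none called by DESeq2.

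The fasting response itself differed by genotype for 1 member, Slc25a10, against 4.35% of all genes. Its wild-type level rose 2.06-fold, from 97.7, 154 and 180 CPM fed to 225, 312 and 334 CPM fasted, without overlap (log2 1.04 ± 0.14, edgeR adjusted p = 2.48e-07). In WT/Y657* mice it was at 112, 170 and 185 CPM fed and 137, 204 and 232 CPM fasted, with overlap and a log2 change of 0.30 ± 0.14 that was not called (edgeR adjusted p = 0.0928). The difference between the 2 responses was -0.74 ± 0.19 (edgeR adjusted p = 0.0222).

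That call passed in all 24 fits that left out 1 mouse (edgeR adjusted p from 0.00972 to 0.0454) and without the 3 fed WT/Y657* mice that lay apart, and was lost under a correction for GC content (edgeR adjusted p = 0.0642). Slc25a33 joined it, in the other direction, under DESeq2, with only the groups compared, and without fed WT/Y657* mouse ALC_MT_858 or fasted WT/Y657* mouse ONF_MT_827. Of the 7 ornithine and urea cycle enzymes 1 was called in this comparison, the ornithine aminotransferase gene Oat, with a difference of -1.11 ± 0.24 (edgeR adjusted p = 0.00655). Between genotypes in fasted liver the partner lists gave calls both ways, against 13.1% of all genes. Of the 16 other mitochondrial transporters 1 was higher and 3 lower, and of the 7 ornithine and urea cycle enzymes 1 and 2. Of the 7 carrier import genes 2 were higher, and of the 3 carnitine shuttle enzymes 1 was lower. Mtch2 was also higher there, by 0.37 ± 0.06 (edgeR adjusted p = 0.000189). The refeeding response differed by genotype for no member by edgeR, against 2.06% of all genes, with 4 members at an unadjusted p under 0.05 and none called by DESeq2. Of the partner genes Mtch2 was called in it, with a difference of -0.35 ± 0.09 (edgeR adjusted p = 0.0338).

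**Figure D4:**
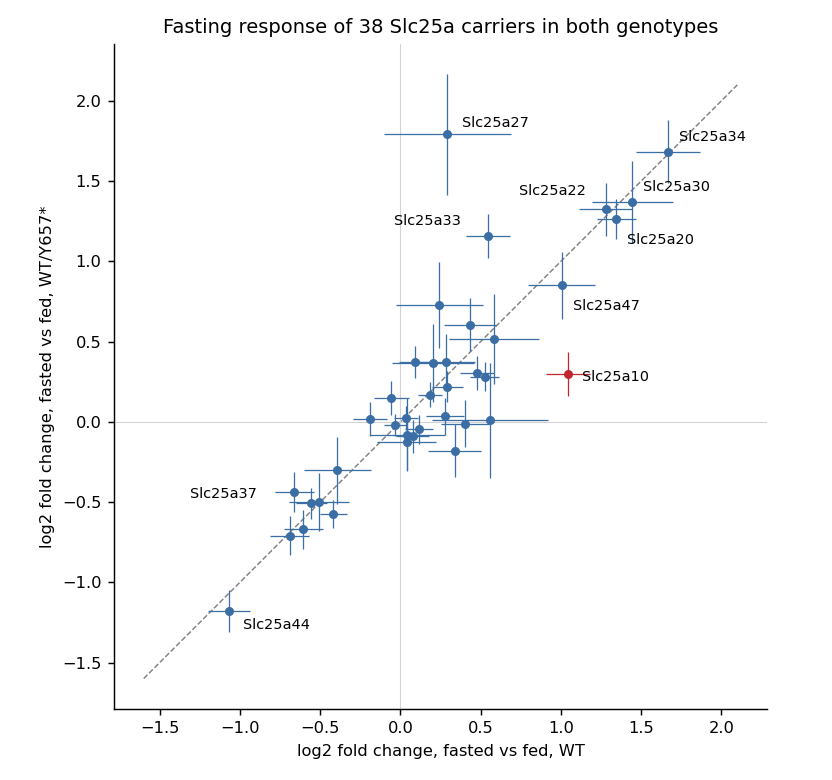
Log2 fold change of fasting in wild-type mice (horizontal) against that in WT/Y657* mice (vertical) for 38 of the 39 tested members, with bars of 1 standard error and a dashed line of equal response. Slc25a10 (red, 1.04 against 0.30) is the one member whose 2 responses were called different, and Slc25a27, at the top, has few counts.

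Pairs of members that carry the same substrate were compared within each liver as the log2 ratio of their CPM, with 0.5 CPM added, by two-sided exact permutation tests over mice. With 6 pairs and 7 comparisons 42 tests were made, p-values were adjusted over the 42, and the smallest p that 6 mice against 6 allow is 0.00216. Fasting brought the CPM of the 2 mitoferrins, which are not set to gene length, closer together. Per kilobase of exon the order of their means changed in wild-type mice. Slc25a28 was at 3.03 beside 5.08 for Slc25a37 in fed liver, and at 3.66 beside 3.22 in fasted liver. The ratio of Slc25a28 (mitoferrin-2) to Slc25a37 was -1.67 to -0.97 in fed and -0.74 to -0.21 in fasted wild-type mice, a change of 0.90 without overlap (exact permutation adjusted p = 0.0227). It changed back by -1.12 on refeeding, again without overlap (exact permutation adjusted p = 0.0227). In WT/Y657* mice the changes were 0.49 and -0.83 (exact permutation adjusted p = 0.0424 and 0.0303), with overlap.

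The ratio of the glutathione carriers Slc25a39 and Slc25a40 rose by 0.60 on fasting of wild-type and 0.62 of WT/Y657* mice (exact permutation adjusted p = 0.0350 and 0.0341), and fell by 0.52 and 0.47 on refeeding (exact permutation adjusted p = 0.0350 and 0.0455). The ratio of the ATP-Mg/phosphate carriers Slc25a23 and Slc25a25 changed by -1.21 and -1.20 on fasting (exact permutation adjusted p = 0.0303 and 0.0424). In refed mice that ratio was -1.004 to -0.24 in WT/Y657* and -1.63 to -1.03 in wild-type mice, 0.83 higher in the former without overlap (exact permutation adjusted p = 0.0227).

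For the aspartate/glutamate carriers the ratio of Slc25a13 to Slc25a12, the isoform of muscle and brain, was 3.97 to 4.53 in fasted wild-type and 3.38 to 4.05 in fasted WT/Y657* mice. That difference of -0.50 passed the test (exact permutation adjusted p = 0.0350), and the groups overlapped. The same ratio rose by 0.54 on fasting in wild-type mice (exact permutation adjusted p = 0.0350), beside 0.17 in WT/Y657* mice (exact permutation adjusted p = 0.433). For Slc25a33 over Slc25a36, the pyrimidine nucleotide carriers, the ratio rose by 0.78 on fasting in WT/Y657* mice without overlap (exact permutation adjusted p = 0.0227) and differed by 0.25 in wild-type mice (exact permutation adjusted p = 0.539). None of the 7 comparisons passed for the ADP/ATP carriers Slc25a5 and Slc25a4, whose adjusted p ran from 0.167 to 0.853 in the exact permutation tests.

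**Figure D5:**
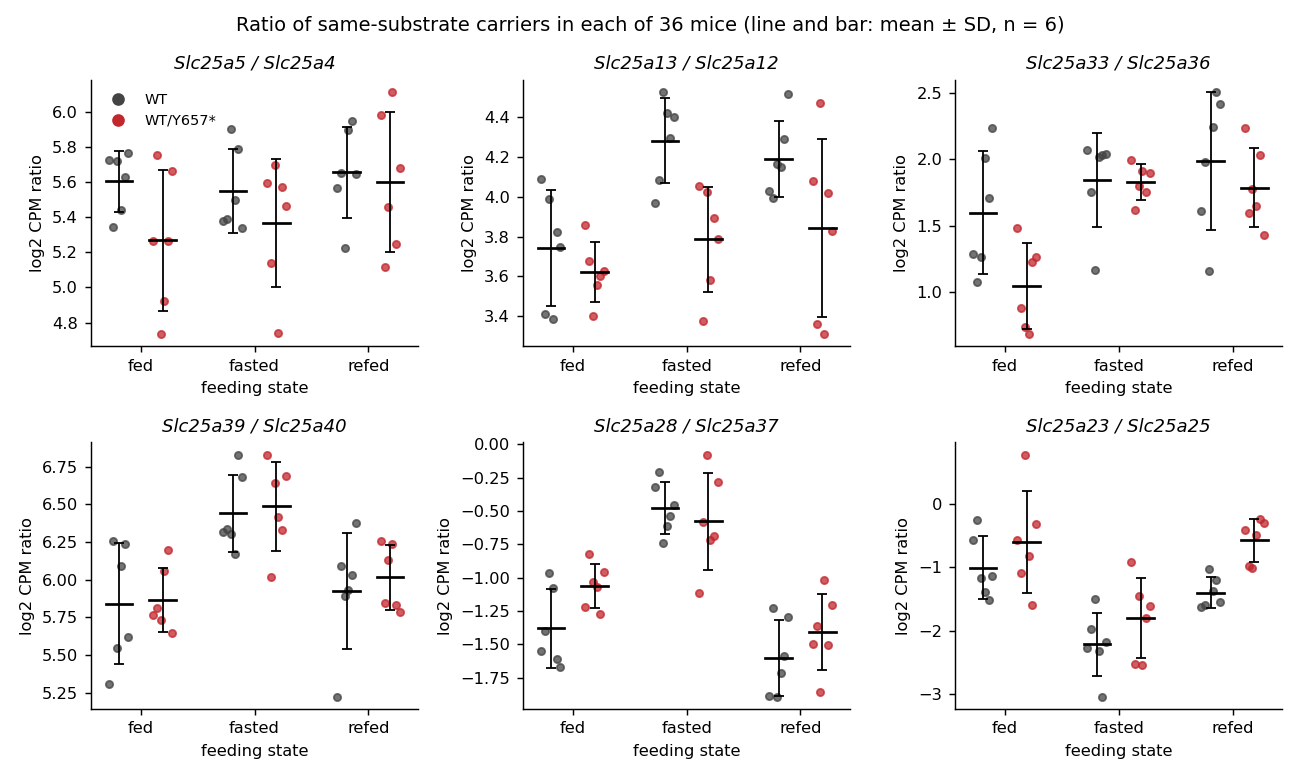
Log2 ratio of CPM of 6 pairs of same-substrate carriers in each of 36 mice, by feeding state, wild-type in grey and WT/Y657* in red, with the mean ± SD of 6 mice. Slc25a28 over Slc25a37 was higher in fasted than in fed and refed wild-type mice without overlap, while Slc25a5 over Slc25a4 overlapped between all groups.

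Of the 39 tested members, 7 were called in none of the 11 comparisons of groups or responses. The share of all genes called in none is not given, so this count is not read as a trait of the family. At the other end, Slc25a20, Slc25a44, Slc25a46 and Slc25a47 were called in both fasting and both refeeding comparisons and in at least 1 comparison of refed with fed mice, and none of the 4 was called between genotypes.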

How the data were processed

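Liver RNA was sequenced by the authors as stranded total RNA libraries. The authors deposited a table of read counts per gene, which are used here as estimated counts: 3.29% of the non-zero values were not whole numbers (tolerance 1e-06), and all were rounded. Per the labels, reads were assigned with featureCounts, and the tool names Cuffdiff, SAMtools and edgeR and the build mm9 were also listed; the positions in the table match GRCm38 instead (GENCODE M21 overlaps 99.7% of the gene IDs found there, all 44 members included), so positions are given on GRCm38. A further table of fitted counts was not used.

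Genes were filtered with filterByExpr and scaled by TMM in edgeR 4.0.16 (R 4.3.3), and 13945 genes were fitted with 1 coefficient for each of 6 groups by the robust quasi-likelihood method. Two-sided p-values were adjusted by Benjamini-Hochberg over all genes tested and called under 0.05. Fold changes are log2 with 1 standard error. Differences among lower-numbered or higher-numbered mice alone are of mean log2 CPM with 0.5 CPM added, and not of the fit. Alternatives were DESeq2 1.42.0 and other scalings, filters, designs and corrections for length and GC content (taken from transcript sequences), and leaving out each mouse, and alternatives without single libraries that lay apart were added after seeing the data. The code was tested on simulated data.

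Members, classes, partner lists and alternatives were chosen with earlier results of these data known. Named were, per comparison, up to 8 called members by smallest p (genotype) or by largest change with a mean of at least 1 CPM (feeding state), the highest member per length of each class, and up to 3 genes of each partner list by smallest p. Slc25a25 between genotypes, Slc25a1, Slc25a13, Slc25a17, Slc25a23, Slc25a37, Slc25a40, Slc25a42 and Slc25a46 on fasting, Slc25a5, Slc25a44 and Slc25a45 on refeeding, Slc25a13 and Slc25a39 in refed against fed wild-type mice, and the 5 members not tested were named outside that rule, after their values were seen, and a member named in 1 genotype is also given in the other. The values of 1 tested member are not reported here, although it is included in the counts. Promoter windows are RefSeq's. Mouse numbers did not pair the groups. No 2 libraries were alike: at least 97.3% of the genes tested had unequal counts in each of 630 pairs.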

Additional observations from a re-analysis of the deposited data

Results flagged for a closer look

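Values of single mice stood far from the other 5 of their group in 7 of the 144 groups examined (24 named members in 6 groups each), by a test of the gap to the nearest mouse against the whole range. Chance flags about 1 in 20 groups, and the number found was near that rate. In fasted wild-type liver 4 were found: Slc25a15 at 503.99 CPM in 1 mouse beside 429 to 454 CPM in the others, Slc25a42 at 40.9 CPM beside 30.5 to 33.2 CPM, Slc25a44 at 53.3 CPM beside 45.0 to 47.2 CPM, and, on the low side, Slc25a33 at 12.9 CPM beside 17.8 to 19.6 CPM. In fasted WT/Y657* liver there were 2, both low: Slc25a20 at 162 CPM beside 237 to 259 CPM and Slc25a21 at 4.91 CPM beside 8.21 to 10 CPM. In refed wild-type liver Slc25a29 was at 2.96 CPM in 1 mouse beside 1.47 to 2.02 CPM in the others.

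The fasting response of Slc25a10 differed between the genotypes, with a difference in log2 change of -0.74 ± 0.19 SE (edgeR adjusted p = 0.0222).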

How the results depend on the processing

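Across 52 values of named members, the alternatives other than leaving out a mouse left direction and call as they were in 501 cases and lost the call in 18, and no value reversed. Leaving out 1 mouse gave 594 and 42. The calls lost without leaving out a mouse concerned Slc25a21 and Slc25a27 between genotypes in fasted mice, Slc25a29 on fasting of WT/Y657* mice, Slc25a26, Slc25a47, Slc25a13 and Slc25a46 in refed against fed mice, and Slc25a10 in the genotype difference of the fasting response. A single value could not be had because the gene failed a filter.

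Counts of called members moved by over 1.5 times as follows. Between genotypes in fed mice 0 became 1 under DESeq2, a likelihood ratio test, and corrections for gene length and for GC content. The genotype difference in the fasting response went from 1 to 2 under DESeq2 and with only the groups compared, and to 0 after the correction for GC content. Refed against fed WT/Y657* mice went from 8 to 5 with only the groups compared. The causes were not tested. Leaving out 1 mouse gave 0 to 1 called members between genotypes in fed, 1 to 4 in fasted and 0 in refed mice, 17 to 20 and 16 to 21 on fasting of wild-type and WT/Y657* mice, and 16 to 20 and 18 to 23 on refeeding. It gave 9 to 13 and 6 to 11 for refed against fed mice, and 1 to 2 and 0 for the genotype difference in the fasting and the refeeding response. No paired analysis was possible because each mouse number belongs to 1 mouse of 1 group. Members under 1 CPM, such as Slc25a27, rest on few counts, which limits what could be detected in them.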
